A study of Homo sapiens with 12 samples.

Results

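The mitochondrial carrier family (SLC25) was examined in HEK293T cells, a human embryonic kidney cell line, with and without knockdown of PRRC2B, an RNA-binding protein. Its members were taken as all gene names of the form SLC25A followed by a number whose raw counts summed to at least 100 over the 12 libraries. Of 59385 gene names in the count table, 48 had such a name and 41 reached that sum, and all 41 also passed the filter on low counts, by which 18166 genes were tested. The summed count that chose the members is a description and not a result: SLC25A18 (104 counts) lay just inside the limit, with SLC25A6 (527) the next member above it. Below the limit, SLC25A32 (82), SLC25A34 (48) and SLC25A41 (45) had the highest sums. The other names below the limit were SLC25A52 with 7 counts and SLC25A2, SLC25A31 and SLC25A47 with 4 each.

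All cells carried a short hairpin RNA (shRNA) under the control of doxycycline (Dox), which was given for 36 h. It was either a non-silencing control (shCtrl) or targeted PRRC2B (shPRRC2B), and each shRNA was studied in a stable line grown from a single clone, so that shRNA and clone cannot be told apart in what follows. Total RNA and polysome-associated RNA, the latter pooled from the heavy part of a sucrose gradient, were sequenced in 3 biological replicates per line and fraction, which gave 4 groups and 12 libraries of 9855734 to 20837542 counts. In total RNA, PRRC2B stood at 281 ± 28.7 CPM (counts scaled to a common library size; SD, n = 3) in shCtrl cells and at 100.3 ± 2.32 in shPRRC2B cells (log2 change -1.49 ± 0.17 (SE), adjusted p = 4.25e-06). The genes taken as markers of HEK293T cells, VIM, PAX2, NEFM and NEFL, were detected in every group, though not at equal levels. In total RNA of shCtrl and shPRRC2B cells NEFM stood at 285.5 and 96.5 CPM, NEFL at 175 and 87.5, VIM at 122 and 237 and PAX2 at 10.03 and 11.98. In polysome RNA NEFM stood at 62.0 and 8.86 and PAX2 at 3.15 and 5.99. Of the genes taken as markers of other cell types, PTPRC, ALB and PECAM1 stayed at or near 0 CPM. COL1A1, taken as a fibroblast marker, stood at 17.1 CPM in shCtrl and 31.8 CPM in shPRRC2B total RNA, above PAX2. The part of these differences in the results was not tested. The polysome library of replicate 1 lay farthest from the others of its group in each line, a description that was not tested. Its chi-square distance per gene to the other replicates was 50.2 and 70.2 in shCtrl cells, against 20.9 between the others, and 36.1 and 35.9 in shPRRC2B cells, against 13.3.

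Mitochondrial carriers are nuclear-encoded proteins that mostly sit in the inner mitochondrial membrane, where they exchange nucleotides, phosphate, carboxylates, amino acids, cofactors and protons between matrix and cytosol. They are made on cytosolic ribosomes and reach the membrane through the TOM complex, the small TIM chaperones and the TIM22 complex. The family is known by a sequence repeated along the protein, the mitochondrial carrier signature, which begins with a proline. The ADP/ATP carriers and the phosphate carrier supply the substrates of ATP synthase.

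To show what the members share beyond their names, the coding sequence of the canonical transcript (GENCODE 44 on GRCh38) was searched on its sense strand for the codons of the mitochondrial carrier signature: a proline codon, any codon, an aspartate or glutamate codon, any 2 codons, and a lysine or arginine codon. At least 3 such matches were found in 27 of the 41 members (65.9%), against 2.79% of the 19219 coding genes searched, and at least 1 in 38 members (92.7%), against 29.9%. The coding sequences of SLC25A46, SLC25A51 and SLC25A53 held none. The first match of 6 members on which the results below turn is printed 5′ to 3′, with the proline, acidic and basic codons in capitals.
SLC25A33 (pyrimidine nucleotide carrier, higher in shPRRC2B cells): acttgtCCActaGAAgtcattAAGacacgg
SLC25A36 (its paralog, lower in shPRRC2B cells): acatgtCCActgGAAgttgtaAAAacacga
SLC25A5 (ADP/ATP carrier, lower in shPRRC2B polysomes): gtagcgCCCatcGAGcgggtcAAGctgctg
SLC25A39 (glutathione carrier, higher in shPRRC2B polysomes): atgacaCCCctgGACgtggtgAAGgttcgc
SLC25A11 (oxoglutarate carrier, higher in both fractions): gtccagCCCctgGACctggtgAAGaaccgg
SLC25A43 (steepest fall in total RNA among the members): acatatCCTacaGACctcatcAAAacccgg

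Only SLC25A5 and SLC25A36 among the members carry a PRRC2B binding site in the PAR-CLIP tables of the study (PAR-CLIP crosslinks a protein to the RNA it binds and sequences the RNA). Both sites were listed for full-length PRRC2B, and no member was found among the sites of its RNA-binding fragment. The paper took as PRRC2B-bound the mRNAs with sites shared by both, so neither member met that criterion in these tables. A stretch of 30 bases from each site is printed here on the sense strand of GRCh38. Capitals mark the longest run of C and T or of G and A letters within the site.
SLC25A36, chr3:140941881-140941910, + strand, exon 1, 5′ UTR: tggagtgccgcGGGGAGGGctgtgccggtt
SLC25A5, chrX:119468492-119468521, + strand, exon 1, 5′ UTR up to the start codon and into the coding sequence: cagcagtctgCCTCCTCTTTCaacatgaca
In SLC25A5 the run of 11 bases ended 3 bases before the start codon, and in SLC25A36 the run of 8 bases ended 155 bases before it.

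The level of the family in the cells was carried by a few members. Summed over the 41 members, the level was 2227 ± 92.5 CPM (SD, n = 3) in shCtrl and 2011 ± 44.5 in shPRRC2B total RNA. In polysome RNA the sum was 6414 ± 1376 in shCtrl cells, with libraries from 4942 to 7668, and 5633 ± 683 in shPRRC2B cells, with libraries from 4852 to 6120, so the polysome sums of the lines overlapped and those of total RNA did not. SLC25A5, SLC25A3 and SLC25A39 held 42.5% ± 0.80 of the sum in shCtrl total RNA and 71.1% ± 4.95 in shCtrl polysome RNA. In shPRRC2B cells their share was 38.9% ± 0.78 and 58.8% ± 4.12. Per kilobase of canonical transcript, the highest levels in shCtrl total RNA were those of SLC25A5 (363 CPM per kb), SLC25A1 (100.9), SLC25A39 (94.2), SLC25A3 (53.9) and SLC25A11 (45.9). This scale takes 1 annotated length per gene. The transcripts in use in these cells were not measured, so the order depends on that annotation. SLC25A1 and SLC25A39 did not differ beyond their spread (SD 13.7 and 11.7 CPM per kb).

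Between the lines, 3 changes were measured on the log2 scale for every gene: the change in total RNA, the change in polysome RNA, and the change in translation efficiency (TE), where TE is polysome over total RNA. Calls needed an adjusted p below 0.05 together with a log2 change beyond 0.5 in either direction. In total RNA, 7 members were called higher and 9 lower, against 14.9% and 14.1% of all genes tested. Polysome RNA was called higher for 10 members and lower for 8 (background 18.4% and 21.4%). For TE, 9 members were called higher and 4 lower (background 10.7% and 16.4%). The TE count was 5 higher without shCtrl total replicate 1, shPRRC2B polysome replicate 3 or shPRRC2B total replicate 1, and the total RNA count 4 higher without shCtrl total replicate 3. At least 1 of the 3 changes was called for 25 members and none for 16. The matching share over all genes tested was not counted, so these numbers describe the members only. The median TE change of the members was 0.22, and -0.03 over all genes tested. Leaving out replicate 2 of shCtrl total RNA gave 0.0928, replicate 3 of shPRRC2B polysome RNA 0.118, and replicates 2 and 3 of shCtrl polysome RNA 0.144 and 0.129. The corresponding medians of the members and of all genes tested were -0.10 and 0.04 for total RNA and -0.01 and -0.01 for polysome RNA. The 3 libraries of each line did not overlap in total RNA for 32 members (78.0%; 63.0% of all genes tested) and in polysome RNA for 19 (46.3%; 43.1% of all genes tested).

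**Figure D1:**
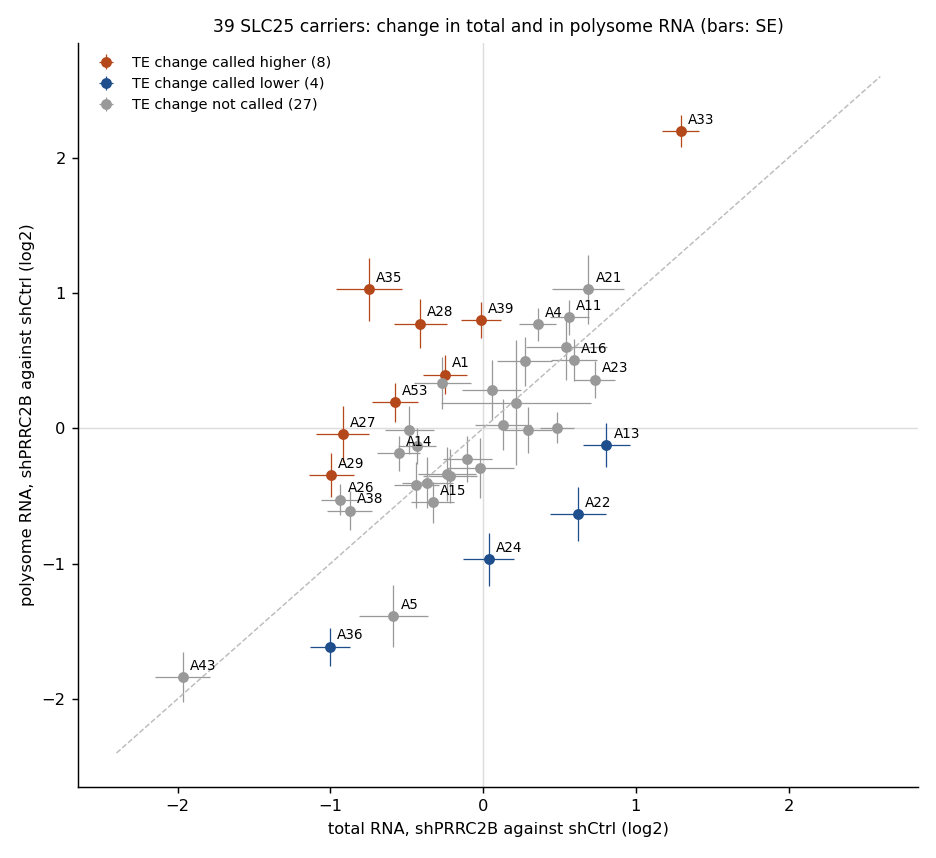
Change in total RNA (horizontal axis, log2) against change in polysome RNA (vertical axis, log2), shPRRC2B against shCtrl, for 39 of the 41 members, with standard errors as bars; SLC25A18, with few counts, is not plotted, and the dashed line marks equal change in both fractions. Members above the line have a higher TE in shPRRC2B cells: SLC25A33 lies at the upper right (1.29 and 2.20), SLC25A43 at the lower left (-1.97 and -1.84), and SLC25A35 and SLC25A22 changed in opposite directions in the 2 fractions.

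Carriers of nucleotides and cofactors held opposite changes. SLC25A33 and SLC25A36 are paralogs that carry pyrimidine nucleotides into mitochondria, and they moved apart. SLC25A33 (chr1:9539465-9585173, + strand) stood at 13.5, 11.4 and 12.02 CPM in the 3 shCtrl total libraries and at 31.6, 29.5 and 29.7 in the shPRRC2B ones. In polysome RNA it stood at 65.4, 60.6 and 55.0 CPM in shCtrl and at 275.9, 260.2 and 292.8 in shPRRC2B cells. Every shPRRC2B library lay above every shCtrl library in both fractions. In bulk RNA, a different number of cells with the transcript and a different amount of it per cell cannot be told apart. The change was 2.45-fold in total RNA (log2 1.29 ± 0.12 (SE), adjusted p = 7.04e-07) and 4.58-fold in polysome RNA (2.20 ± 0.12, adjusted p = 7.65e-10), and TE was 1.87-fold higher (0.90 ± 0.17, adjusted p = 0.000875).

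SLC25A36 (chr3:140941830-140980995, + strand) went the other way. Its total RNA stood at 177.7, 167.4 and 196.5 CPM in shCtrl and at 86.1, 87.1 and 96.7 in shPRRC2B cells. In polysome RNA the values were 87.5, 106 and 104 CPM against 38.4, 27.4 and 31.3. No library of either line overlapped the other line in either fraction. The fall was 2.01-fold in total RNA (log2 -1.004 ± 0.13 (SE), adjusted p = 2.54e-05) and 3.06-fold in polysome RNA (-1.61 ± 0.14, adjusted p = 1.81e-07), while TE fell by 0.61 on the log2 scale (SE 0.19, adjusted p = 0.0244). The TE call was lost, at a log2 change of -0.12 and an adjusted p of 0.694, once the trend of counts on transcript length was removed from each library, whereas the calls in total and polysome RNA remained. With total count scaling (-0.55, adjusted p = 0.0597) and without shCtrl total replicate 1 or 2, shPRRC2B polysome replicate 2 or shPRRC2B total replicate 3 the TE call was lost as well, with adjusted p-values of at most 0.0696 over all left-out libraries. The ratio of SLC25A33 to SLC25A36 counts rose from a mean of 0.0685 in shCtrl to 0.338 in shPRRC2B total RNA, and from 0.616 to 8.68 in polysome RNA. In polysome RNA the shCtrl libraries ran from 0.529 to 0.747 and the shPRRC2B libraries from 7.195 to 9.49.

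Other members of the group changed less. SLC25A26, which carries S-adenosylmethionine, fell in total RNA from 16.1, 17.1 and 16.2 CPM to 9.10, 9.05 and 7.69 (log2 -0.94 ± 0.12, adjusted p = 2.73e-05) and in polysome RNA from 99.8, 113 and 117 to 76.4, 75.5 and 77.3 (-0.53 ± 0.12, adjusted p = 0.00137, at -0.48 under the size limit with at least 10 counts in every library). The groups did not overlap in either fraction, and the TE change of 0.41 was not called (adjusted p = 0.0835). SLC25A26 shares 127 bases of exon with LRIG1 on the opposite strand, and the counting options given do not name a strand. SLC25A16, a carrier linked to coenzyme A, was called higher in total RNA (0.60 ± 0.15, adjusted p = 0.00514), at 0.43 under the size limit with the length trend removed. It was also called, just past the limit, in polysome RNA (0.50 ± 0.16, adjusted p = 0.0140), where the call was lost with DESeq2, with RLE or total count scaling, without the filter on low counts, and without any of the 3 shCtrl polysome libraries or shPRRC2B polysome replicate 1 or 3 (0.31 to 0.51 over all left-out libraries). SLC25A17 (peroxisomal), SLC25A42 (coenzyme A) and SLC25A51 (NAD+) were called in none of the 3 changes.

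Among the ADP/ATP, ATP-Mg/phosphate and phosphate carriers, SLC25A4, SLC25A5 and SLC25A24 were called in polysome RNA and SLC25A23 in total RNA. SLC25A5 is the ADP/ATP carrier of proliferating cells, and its gene (chrX:119468422-119471396, + strand) had the highest level per kilobase of all members in shCtrl total RNA. Its total RNA stood at 479, 495 and 451 CPM in shCtrl and at 331, 320.4 and 296 in shPRRC2B cells. Polysome RNA stood at 1669, 2876 and 3559 CPM in shCtrl and at 705, 1245 and 1150 in shPRRC2B cells. The lines did not overlap in either fraction, and replicate 1 gave the lowest polysome value in each line. Polysome RNA was 2.61-fold lower (log2 -1.39 ± 0.23, adjusted p = 0.000115), and the changes in total RNA (-0.59 ± 0.23, adjusted p = 0.0526) and in TE (-0.80 ± 0.32, adjusted p = 0.0727) missed the threshold. Without shCtrl polysome replicate 1 the TE change was -1.08 (adjusted p = 0.00121) and the total RNA change -0.64 (adjusted p = 0.00271), and both were then called. The total RNA change was also called by DESeq2 (-0.59, adjusted p = 0.0383), under every other scaling or filter tried, and without any other polysome library. The TE change was called as well without shPRRC2B polysome replicate 2 (-0.97, adjusted p = 0.0429), by DESeq2 (-0.82, adjusted p = 0.0489) and without the filter on low counts (-0.85, adjusted p = 0.000525). In the polysome RNA change itself, every left-out library kept the call, between -1.72 and -1.23.

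SLC25A4, the isoform of heart and muscle, moved in the opposite direction at a far lower level. It stood at 56.0, 72.4 and 59.2 CPM in shCtrl and at 107, 111 and 101 in shPRRC2B polysome RNA (log2 change 0.77 ± 0.12, adjusted p = 7.97e-05). In total RNA its change of 0.36 ± 0.12 passed the p threshold (adjusted p = 0.0311) but not that of size, and its TE change was 0.41 ± 0.17 (adjusted p = 0.0866). With the length trend removed, the TE changes of SLC25A4 (0.75, adjusted p = 0.00505) and SLC25A5 (-1.09, adjusted p = 0.0176) were both called, in opposite directions. As a share of the summed counts of SLC25A4 and SLC25A5, SLC25A5 made up 94.2% ± 0.32 of shCtrl and 89.4% ± 0.54 of shPRRC2B total RNA. In polysome RNA its share was 97.6% ± 0.81 in shCtrl and 90.2% ± 2.92 in shPRRC2B cells. SLC25A6, the third isoform in this set, was counted at only 0.53 to 2.26 CPM in shCtrl total RNA. Its gene lies in the pseudoautosomal region (chrX:1386152-1392113), which the reference holds on X and Y, and read pairs that map to more than 1 place were not counted, so its level is not comparable with that of the others. None of its changes was called (total RNA 0.21 ± 0.49, polysome RNA 0.19 ± 0.46, TE -0.02 ± 0.65 on the log2 scale). SLC25A31, the testis isoform, had 4 counts in all.

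**Figure D2:**
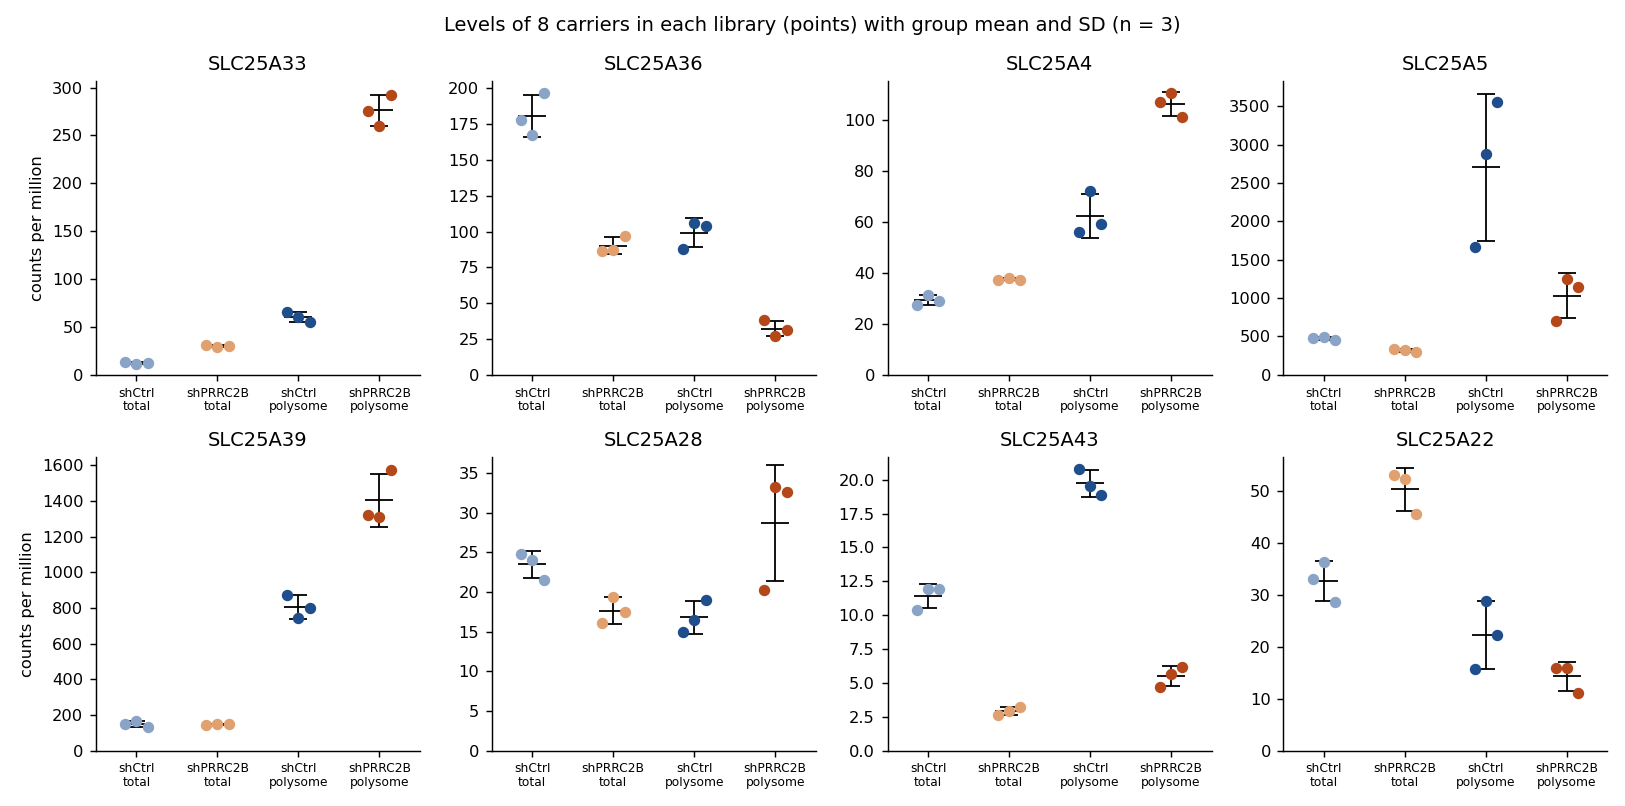
CPM (vertical axes, linear from 0) of 8 members in each of the 12 libraries, with points for libraries and black marks for the group mean and SD (n = 3), shCtrl in blue and shPRRC2B in orange, total RNA in the lighter tone. SLC25A33 rose and SLC25A36 fell in both fractions, SLC25A4 and SLC25A5 moved apart in polysome RNA, and SLC25A22 was higher in total RNA of shPRRC2B cells (45.6 to 53.1 CPM against 28.5 to 36.3) but not in their polysome RNA.

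The phosphate carrier SLC25A3, which supplies phosphate to ATP synthase, was called in none of the changes. Its total RNA stood at 328, 335 and 306 CPM in shCtrl and 326, 330 and 299 in shPRRC2B cells, values that overlapped (log2 change -0.02 ± 0.22, adjusted p = 0.956). In polysome RNA it stood at 718, 1116 and 1459 against 598, 1059 and 1031 CPM, also overlapping (-0.29 ± 0.22, adjusted p = 0.293), and the TE change was -0.27 ± 0.31 (adjusted p = 0.549). Without shCtrl polysome replicate 1, its polysome RNA was called lower (-0.60, adjusted p = 0.00783). The calcium-regulated ATP-Mg/phosphate carriers differed from each other. SLC25A24 had a total RNA change of 0.04 ± 0.17 on the log2 scale (adjusted p = 0.888) and fell in polysome RNA from 12.9, 18.3 and 14.3 to 9.97, 7.36 and 5.80 CPM without overlap (-0.97 ± 0.20, adjusted p = 0.000699). Its TE change of -1.01 ± 0.26 (adjusted p = 0.00808) became -0.70 (adjusted p = 0.0542) with the length trend removed. SLC25A23 rose in total RNA from 94.4, 98.5 and 84.9 to 152, 160 and 149 CPM (0.73 ± 0.14, adjusted p = 0.000543) and its polysome change of 0.36 and TE change of -0.37 were not called. SLC25A25 was called in none.

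The carriers of di- and tricarboxylates moved upwards where they were called. SLC25A11, the oxoglutarate/malate carrier of the malate-aspartate shuttle, stood at 80.4, 82.8 and 69.6 CPM in shCtrl and at 120, 113 and 112 in shPRRC2B total RNA. In polysome RNA it stood at 212, 286 and 238 CPM in shCtrl and 435, 428 and 436 in shPRRC2B cells. The groups did not overlap in either fraction. Its log2 changes were 0.56 ± 0.13 in total RNA (adjusted p = 0.00252, at 0.49 under the size limit without shCtrl total replicate 3 or with total count scaling) and 0.82 ± 0.13 in polysome RNA (adjusted p = 6.16e-05), with a TE change of 0.26 that was not called. SLC25A21, the oxoadipate carrier, was a low-level member called higher in both fractions (0.69 ± 0.24, adjusted p = 0.0314 in total and 1.03 ± 0.25, adjusted p = 0.00330 in polysome RNA). Its total RNA call was lost without shCtrl total replicate 2 or 3 or any of the 3 shPRRC2B total libraries (0.57 to 0.82, adjusted p up to 0.139), with total count scaling, without the filter on low counts and with the length trend removed, and it shares exon bases with SLC25A21-AS1 and PAX9 on the opposite strand. SLC25A1, the citrate carrier, was called in TE alone (0.65 ± 0.21, adjusted p = 0.0264), a call lost without shCtrl total replicate 1 or 2, shPRRC2B polysome replicate 2 or 3 or any of the 3 shPRRC2B total libraries (0.51 to 0.75, adjusted p up to 0.0791), and with the length trend removed (0.41, adjusted p = 0.118). SLC25A10, the dicarboxylate carrier, was called in none of the 3.

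Among the carriers of amino acids and acylcarnitine, 2 members of the malate-aspartate shuttle and of glutamate transport had more total RNA without more polysome RNA. SLC25A13, an aspartate/glutamate carrier, stood at 47.7, 50.1 and 49.1 CPM in shCtrl and at 88.6, 84.2 and 83.9 in shPRRC2B total RNA, a 1.75-fold rise (log2 0.81 ± 0.16, adjusted p = 0.000766). Its polysome RNA overlapped between the lines, at 24.8, 37.9 and 44.6 against 34.7, 33.0 and 30.4 CPM (-0.12 ± 0.16, adjusted p = 0.566). The TE change, which shares the libraries of those 2 changes, was -0.93 ± 0.23 (adjusted p = 0.00573). SLC25A12, its paralog, stood near 24.7 ± 0.41 and 23.0 ± 1.00 CPM in the total RNA of the lines and was called in none of the 3 changes.

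SLC25A22, a glutamate carrier, rose in total RNA from 33.0, 36.3 and 28.5 to 53.1, 52.3 and 45.6 CPM (log2 change 0.62 ± 0.18, adjusted p = 0.0146). In polysome RNA it stood at 15.7, 28.9 and 22.3 in shCtrl and at 15.9, 15.95 and 11.1 CPM in shPRRC2B cells, groups that overlapped at the lowest shCtrl library (-0.63 ± 0.20, adjusted p = 0.0170). It thus fell in 1 fraction and rose in the other, with a TE change of -1.25 ± 0.27 (adjusted p = 0.00279). Without shCtrl polysome replicate 2 the polysome change was -0.49 (adjusted p at most 0.0527 over the left-out libraries) and was not called. The total RNA call was lost without replicate 1 or 3 of shCtrl total RNA or replicate 1 or 2 of shPRRC2B total RNA, at 0.54 to 0.71 over all left-out libraries, while the TE call held in every alternative.

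SLC25A29, a carrier of basic amino acids, fell in total RNA from 58.6, 55.1 and 48.7 to 25.2, 28.2 and 28.1 CPM (log2 -0.995 ± 0.15, adjusted p = 7.64e-05). Its polysome RNA did not pass the threshold (-0.35 ± 0.16, adjusted p = 0.0912). TE was called higher (0.65 ± 0.22, adjusted p = 0.0344), a call lost without shCtrl polysome replicate 2 or 3, shCtrl total replicate 1 or 2, shPRRC2B polysome replicate 2 or 3 or any of the 3 shPRRC2B total libraries (0.49 to 0.76, adjusted p up to 0.104). The call was also lost with either block, without the filter on low counts and with the length trend removed (0.56 to 0.65, adjusted p up to 0.0960). SLC25A38, the glycine carrier that serves haem synthesis, fell in total RNA from 38.9, 37.8 and 34.5 to 20.7, 21.8 and 18.2 CPM (-0.87 ± 0.15, adjusted p = 0.000239) and in polysome RNA from 94.8, 98.2 and 104 to 70.0, 49.3 and 75.2 (-0.61 ± 0.14, adjusted p = 0.00245). Neither fraction overlapped between the lines, and the TE change of 0.26 was not called. SLC25A15, the ornithine carrier of the urea cycle, was called lower in polysome RNA (-0.55 ± 0.15, adjusted p = 0.00720), with -0.43 and no call without shCtrl polysome replicate 3. The call was also lost with at least 10 counts in every library (-0.499) and with the length trend removed (-0.38). SLC25A18, the other glutamate carrier, had 0, 1 and 0 counts in the shCtrl and 1, 11 and 11 in the shPRRC2B polysome libraries, which overlap. It was among the members called higher in polysome RNA (log2 4.11 ± 1.21, adjusted p = 0.0105), a call that rests on these few counts. The ratio of the summed counts, scaled by library size, was 20.4 with an exact 95% interval from 3.31 to 840 that covers counting error only. SLC25A20 (carnitine/acylcarnitine) and SLC25A44 (branched-chain amino acids) were called in none.

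The iron and glutathione carriers were called higher in polysome RNA and TE where they were called at all. SLC25A39, which imports glutathione, was not called in total RNA, where 149.4, 167.3 and 130 CPM in shCtrl cells overlapped with 144, 149.1 and 148.7 in shPRRC2B cells (log2 change -0.02 ± 0.13, adjusted p = 0.941). Its polysome RNA stood at 874, 744 and 800.1 CPM in shCtrl and at 1321, 1313 and 1576 in shPRRC2B cells, without overlap. This was a 1.74-fold rise (0.80 ± 0.13, adjusted p = 0.000112) with a TE change of 0.82 ± 0.19 (adjusted p = 0.00390). Its paralog SLC25A40 was called in none of the 3 changes (TE -0.04 ± 0.25, adjusted p = 0.946).

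SLC25A28, mitoferrin-2, which brings iron into mitochondria, stood at 14.9, 16.5 and 19.0 CPM in shCtrl and at 20.3, 33.2 and 32.5 in shPRRC2B polysome RNA. The lines did not overlap, with the lowest shPRRC2B library close above the highest shCtrl one (log2 change 0.77 ± 0.18, adjusted p = 0.00239). Its total RNA change was -0.41 ± 0.17 (adjusted p = 0.0753) and its TE change 1.19 ± 0.25 (adjusted p = 0.00238). Its paralog mitoferrin-1, SLC25A37, was called in none (TE 0.30 ± 0.18, adjusted p = 0.237). The TE changes of SLC25A28 and SLC25A39 were called in every alternative tried. Whether each differed from its paralog's change was not tested.

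**Figure D3:**
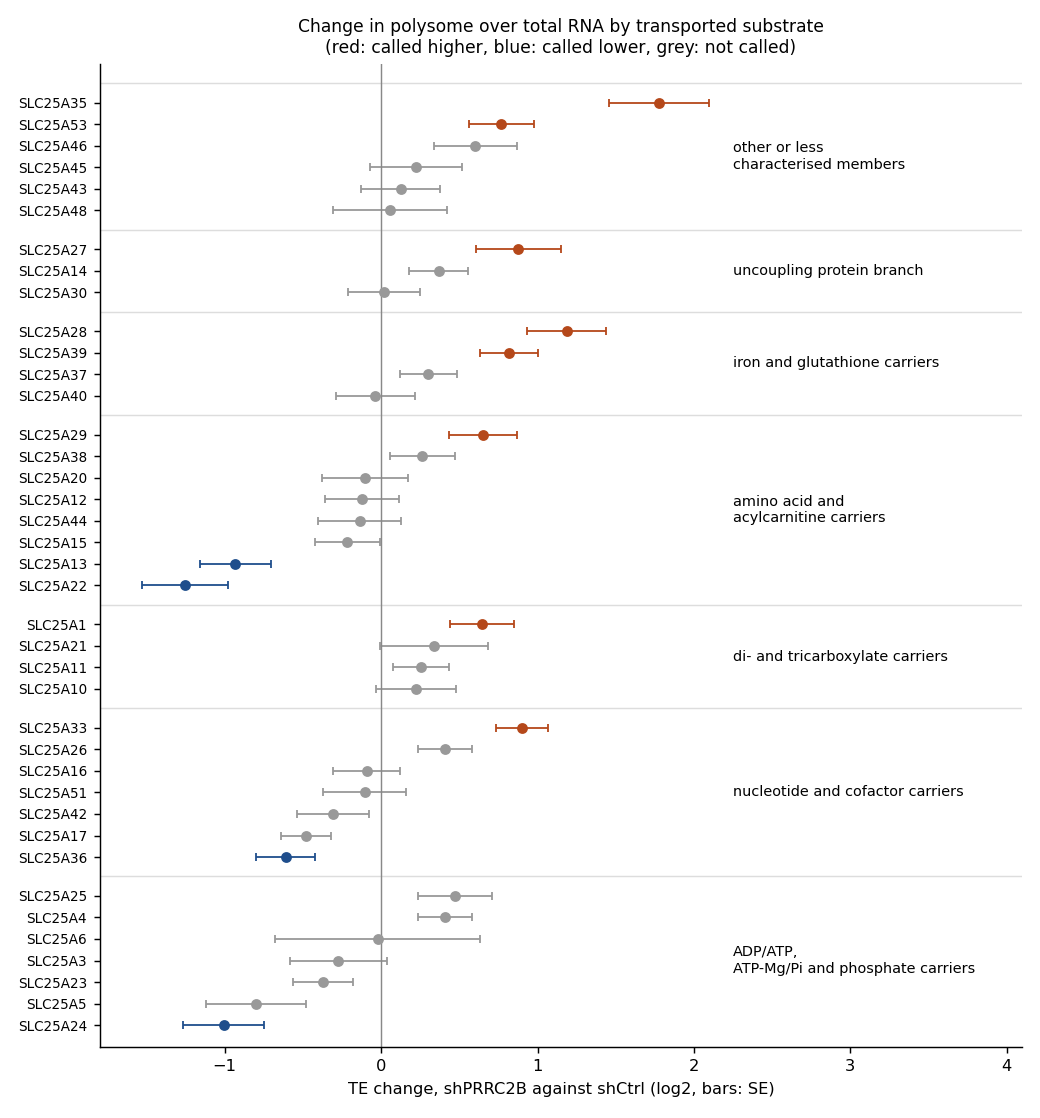
TE change (horizontal axis, log2, shPRRC2B against shCtrl) of 39 members grouped by what they carry, with standard errors as bars; red points were called higher, blue points lower and grey points not called. The TE change ran from -1.25 for SLC25A22 to 1.78 for SLC25A35, and the groups of nucleotide and of amino acid carriers each held calls in both directions.

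The 3 members of the uncoupling protein branch, which are relatives of the proton carrier UCP1, all had lower total RNA in shPRRC2B cells, 2 of them past the thresholds. SLC25A27 (UCP4) fell from 31.9, 31.0 and 32.1 to 14.4, 16.1 and 19.7 CPM in total RNA, without overlap (log2 -0.92 ± 0.18, adjusted p = 0.000678), and its polysome RNA overlapped between the lines (-0.04 ± 0.21, adjusted p = 0.904). TE was called higher (0.88 ± 0.27, adjusted p = 0.0230), and the call was lost without shCtrl polysome replicate 2, shCtrl total replicate 1, shPRRC2B polysome replicate 2 or 3 or shPRRC2B total replicate 1 or 2 (log2 0.64 to 1.02, adjusted p up to 0.0665). SLC25A14 (UCP5) fell from 15.9, 16.2 and 15.6 to 11.0, 9.98 and 11.5 CPM in total RNA (-0.55 ± 0.14, adjusted p = 0.00538), which was -0.50 and under the size limit without shPRRC2B total replicate 2. SLC25A30 was called in none, with a total RNA change of -0.44 ± 0.15 (adjusted p = 0.0283).

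Less characterised members held the steepest fall in total RNA and the largest called TE change. SLC25A43 (chrX:119399336-119454478, + strand) stood at 10.4, 11.94 and 11.95 CPM in shCtrl and at 2.66, 2.90 and 3.19 in shPRRC2B total RNA. In polysome RNA it stood at 20.79, 19.5 and 18.9 against 4.73, 5.64 and 6.18 CPM. The lines were far apart in both fractions, 3.91-fold in total RNA (log2 -1.97 ± 0.18, adjusted p = 5.60e-07) and 3.58-fold in polysome RNA (-1.84 ± 0.18, adjusted p = 7.68e-07), while the TE change was 0.13 ± 0.25 (adjusted p = 0.756). SLC25A35 changed in opposite directions: its total RNA fell from 23.0, 16.03 and 15.1 to 9.52, 10.2 and 12.6 CPM (-0.75 ± 0.22, adjusted p = 0.0127) and its polysome RNA rose from 7.77, 8.90 and 10.8 to 12.9, 22.5 and 20.5 (1.03 ± 0.23, adjusted p = 0.00179). No library overlapped in either fraction, and the TE change of 1.78 ± 0.32 (adjusted p = 0.000692), a 3.43-fold difference, held in every alternative. The total RNA call was lost without replicate 1 of shCtrl total RNA (-0.53) or replicates 1 or 2 of shPRRC2B total RNA (adjusted p up to 0.109). SLC25A53 fell in total RNA from 8.87, 9.895 and 9.95 to 6.49, 6.01 and 6.73 CPM (-0.58 ± 0.15, adjusted p = 0.00668) with a TE change of 0.77 ± 0.21 (adjusted p = 0.0111), a call lost without the filter on low counts (0.72, adjusted p = 0.0629). SLC25A45, SLC25A46 and SLC25A48 were called in none.

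The members' changes in RNA level were set beside those of other genes on the same chromosome. All 4 members on chromosome 3 (SLC25A20, SLC25A26, SLC25A36 and SLC25A38) had lower total RNA in shPRRC2B cells, SLC25A20 without a call (-0.24, adjusted p = 0.366), and the median over the 897 other genes tested on that chromosome was -0.49 in total RNA and -0.69 in polysome RNA, the lowest of all chromosomes in total RNA. Both members on chromosome 13 had values below 0 in total RNA without a call, SLC25A15 at -0.33 (adjusted p = 0.0800) and SLC25A30 at -0.44 (adjusted p = 0.0283), beside a chromosome median of -0.31 in total RNA and -0.57 in polysome RNA. Chromosome 10 had the highest median in total RNA (0.43). There SLC25A16 was higher by 0.60 and SLC25A28 lower by 0.41 in total RNA. On the X chromosome, whose median was -0.07, the total RNA change was below 0 for SLC25A5, SLC25A14, SLC25A43 and SLC25A53 and above 0 for SLC25A6.

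To describe this more closely, each member was set beside the median change of the other genes tested within 5 Mb on either side, a distance chosen after the data were seen. SLC25A33 had neighbours with a median of 0.76 in total RNA (78 genes) and 0.74 in polysome RNA, beside its own 1.29 and 2.20. SLC25A38 had a total RNA change of -0.87 beside a neighbour median of -0.81 (54 genes), and SLC25A36 of -1.004 beside -0.39 (46 genes). SLC25A43 and SLC25A5, which lie close together on the X chromosome, had the same neighbours, with a median of -0.27 in total RNA and -0.63 in polysome RNA (42 genes). In total RNA, 13 of the 16 called members lay on the same side of 0 as their neighbours, against 77.6% of all called genes, and in polysome RNA 15 of 18, against 68.4%. For TE it was 5 of 13, against 64.9%. Across the 41 members, Spearman's rho between the member and its neighbours was 0.43 in total RNA, 0.60 in polysome RNA and 0.04 in TE. Over 15760 genes with a position it was 0.38, 0.33 and 0.15. Genes near each other share their neighbours, so these values are descriptions. The part of genome position in the members' changes was not tested, and the shRNA and the clone cannot be told apart.

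**Figure D4:**
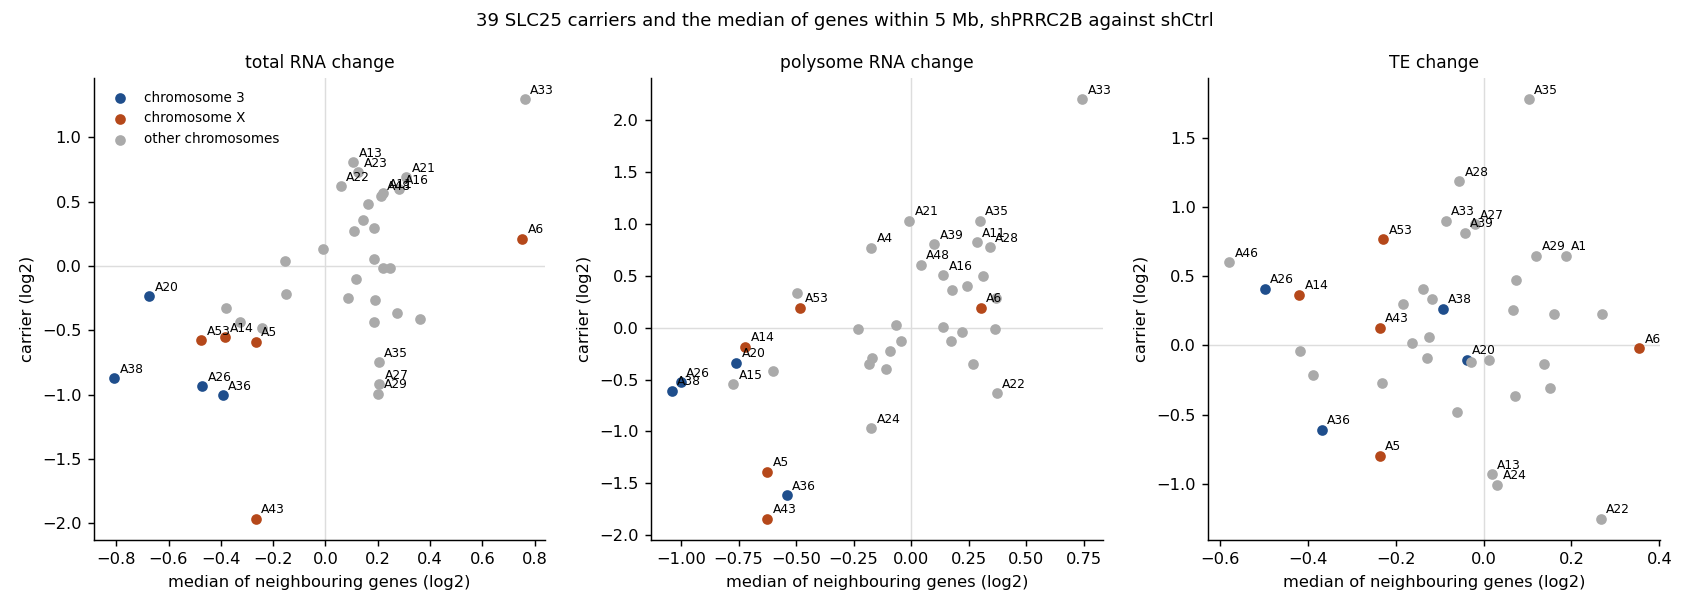
Change of 39 members (vertical axes, log2, shPRRC2B against shCtrl) against the median change of other genes tested within 5 Mb (horizontal axes, log2), for total RNA, polysome RNA and TE, with members on chromosome 3 in blue and on X in orange. In total and polysome RNA the members on chromosome 3 lie at the lower left and SLC25A33 at the upper right, and in TE the rank correlation was near 0 (rho 0.04 over 41 members).

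Within each line, members differed widely in how much of their RNA was on polysomes. On the scale used, which sets the libraries of both fractions to a common total by TMM, 18 members were called higher and 15 lower in polysome than in total RNA of shCtrl cells (background 32.5% and 39.8%), and 21 higher and 12 lower in shPRRC2B cells (background 36.6% and 42.3%). Of these, 18 were higher in both lines and 11 lower in both, and the share of all genes tested called in both lines was not counted. SLC25A26 had the highest value in shCtrl cells (log2 2.74 ± 0.12, adjusted p = 2.64e-12), followed by SLC25A5 (2.51 ± 0.24), SLC25A39 (2.44 ± 0.14) and SLC25A14 (2.38 ± 0.14), neighbours in this order that lay within about 2 standard errors of each other. At the other end stood SLC25A27 (-2.01 ± 0.19), SLC25A29 (-1.49 ± 0.15), SLC25A30 (-1.45 ± 0.16) and SLC25A24 (-1.44 ± 0.18). SLC25A18, at -3.01 ± 1.28, had few counts. SLC25A35 stood at -0.99 ± 0.23 in shCtrl and at 0.79 ± 0.22 in shPRRC2B cells, but the latter turned to -0.16 with total count scaling and to -0.047 with the length trend removed, without a call in either. Scaling by total counts moved the median of all genes tested by -0.99 in shCtrl cells on this measure, and the split of calls among the members became 9 higher and 23 lower. The median of the members was 0.14 in shCtrl and 0.61 in shPRRC2B cells, against -0.22 in each line over all genes tested.

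Members with short transcripts were mostly on the polysome side. Of the 13 members whose canonical transcript is under 2000 nt, 10 were called higher in polysome RNA of shCtrl cells and all 13 in that of shPRRC2B cells. Of the 28 longer members, 8 were called higher in each line, with 14 lower in shCtrl and 12 in shPRRC2B cells. The share of calls among all genes of each length was not counted, and the calls are on the TMM scale given above. The same order was present over all genes tested: the median log2 polysome-to-total ratio in shCtrl cells was 1.44 for 4748 genes under 2000 nt and -0.73 for 11014 longer genes, and in members it was 1.66 and -0.51. In shPRRC2B cells it was 1.79 and -0.97 over all genes tested and 1.82 and -0.36 in members, so the shorter members lay near other short genes. Across members, Spearman's rho with transcript length was -0.40 in shCtrl and -0.47 in shPRRC2B cells, and across 15762 genes -0.56 and -0.61. SLC25A33 (3865 nt), SLC25A3 (5984 nt), SLC25A53 (6207 nt) and SLC25A4 (4415 nt) were members with a long canonical transcript and a log2 ratio above 1 in both lines. Whether that transcript is the one in use was not measured. TE changes also went with length over all genes tested (rho -0.41), and rho over the members was -0.19, with log2 medians of 0.26 for the shorter and 0.07 for the longer members. The values of rho are correlations across genes, which are not independent replicates. With the length trend removed, SLC25A36 turned from -0.86 to 0.37 in shCtrl and from -1.47 to 0.26 in shPRRC2B polysome against total RNA.

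**Figure D5:**
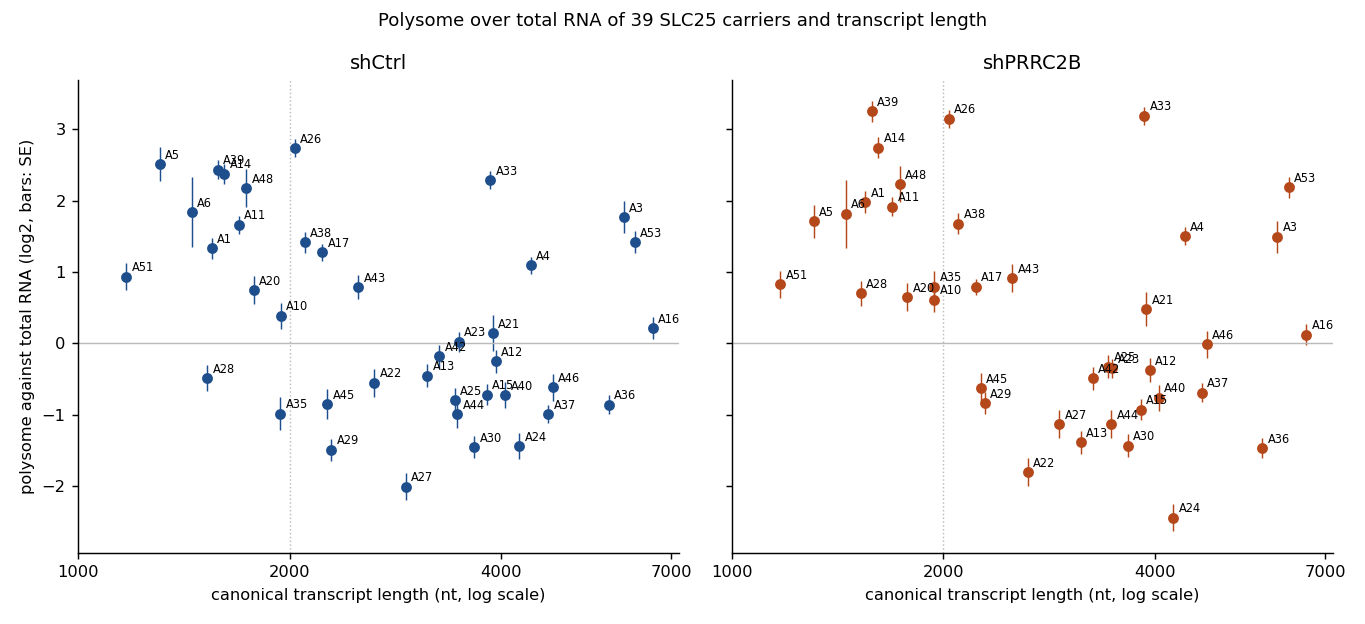
Polysome against total RNA (vertical axis, log2, bars are standard errors) of 39 members against the length of the canonical transcript (horizontal axis, nt, log scale), in shCtrl cells (left) and shPRRC2B cells (right); the dotted line marks 2000 nt. Most members left of the line lie above 0, while SLC25A36 (5697 nt) lies at -0.86 and -1.47.

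Genes that import or accompany the carriers were counted from lists by name. In the import route of the carriers (TOM receptors and pore, small TIM chaperones and TIM22 complex), 14 of 16 genes were tested, with 3 called higher and 1 lower in TE (median 0.33). TOMM70, the outer membrane receptor for carrier precursors, fell in TE by 1.38 on the log2 scale (SE 0.20, adjusted p = 0.000154). TOMM7, a small subunit of the TOM complex, rose in TE by 1.26 ± 0.23 (adjusted p = 0.000875). TIMM8A and TIMM13, small chaperones of the intermembrane space, rose in TE by 0.77 ± 0.25 (adjusted p = 0.0269) and 0.68 ± 0.24 (adjusted p = 0.0417). For TOMM7 and TIMM8A, total RNA was called lower (-1.30 and -0.61) and polysome RNA was not called (-0.04 and 0.16). For TOMM70 and TIMM13, polysome RNA was called (-1.83 and 0.99) and total RNA was not. Of 17 other transporters of the inner membrane, 16 were tested, with 0 called higher and 6 lower in TE by edgeR (median -0.55). None of the 16 was higher at an unadjusted p under 0.05, and DESeq2 called 0 higher and 7 lower. The calls by edgeR included the potassium/proton exchange protein LETM1 (-1.07 ± 0.18, adjusted p = 0.000385), the sideroflexin SFXN2 (-0.996 ± 0.34), the sodium/calcium exchanger SLC8B1 (-0.87 ± 0.31), the calcium uniporter regulator MICU2 (-0.86 ± 0.28) and ABCB10 (-0.78 ± 0.26), with adjusted p-values of the last 4 between 0.0296 and 0.0492. SFXN2 and SLC8B1 were called higher in total RNA (0.83 each) and not called in polysome RNA (-0.16 and -0.04). LETM1, MICU2 and ABCB10 were called lower in polysome RNA (-0.60, -0.66 and -0.88) and not called in total RNA. Of the 3 outer membrane channels, VDAC1 was called lower in TE (-0.70 ± 0.18, adjusted p = 0.00905). Family members with other names (UCP2, UCP3, MTCH1 and MTCH2) held 1 call in TE, for UCP3, which had 2, 0 and 0 counts in the shCtrl and 9, 6 and 9 in the shPRRC2B polysome libraries. Against the background of 10.7% higher and 16.4% lower, these are counts over few genes and were not tested as lists. These values come from all 12 libraries without removal of the length trend, with which TE changes went over all genes tested (rho -0.41).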

How the data were processed

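The authors trimmed the read pairs (Trimmomatic 0.36), mapped them to GRCh38 (HISAT2 2.1.0) and counted pairs per GENCODE 38 gene name with featureCounts (Subread 2.0.1, versions per the labels), and deposited raw counts without normalization. Pairs mapping to several places were not counted under the options stated, and no strand is given. The counts (4 groups of 3 libraries) were tested with edgeR 4.0.16 under R 4.3.3: filterByExpr (minimum count 10), TMM scaling, glmQLFit and glmQLFTest over all 12 libraries, and Benjamini-Hochberg adjustment over 18166 genes. CPM were taken over TMM-scaled library sizes. DESeq2 1.42.0, other scalings and filters, blocks, removal of the length trend (lowess, span 0.3; 86.8% of genes had a length) and each library left out were alternatives. Lengths and positions are those of GENCODE 44. The pipeline was tested on simulated counts. Statistics are given in full for members past the thresholds, the ADP/ATP and phosphate carriers and the PAR-CLIP members. Values of 1 member and of 1 gene of the lists are not reported here, though counts over the family include them. The members, roles and gene lists were chosen with earlier results of these data known.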

Additional observations from a re-analysis of the deposited data

Results flagged for a closer look

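The 12 members below differed between the lines in their polysome-to-total ratio by a test of the difference itself (the TE change, edgeR's quasi-likelihood test). Ratios were higher in shPRRC2B cells, on the log2 scale, for SLC25A35 (1.78), SLC25A28 (1.19), SLC25A33 (0.90), SLC25A27 (0.88), SLC25A39 (0.82), SLC25A53 (0.77), SLC25A29 (0.65) and SLC25A1 (0.65). They were lower for SLC25A22 (-1.25), SLC25A24 (-1.01), SLC25A13 (-0.93) and SLC25A36 (-0.61). The calls of SLC25A1, SLC25A24, SLC25A27, SLC25A29, SLC25A36 and SLC25A53 were lost in some of the alternatives run. With 3 libraries a group, single libraries were not tested for standing apart.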

How the results depend on the processing

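Of the 13 members called in TE, 6 (SLC25A13, SLC25A22, SLC25A28, SLC25A33, SLC25A35 and SLC25A39) were called in the same direction under every alternative run, as were 10 of 16 in total RNA and 14 of 18 in polysome RNA. The 14 include SLC25A18, whose few counts left it out of the alternative with at least 10 counts in every library. With single libraries left out, members called higher in TE numbered 5 to 9 and lower 3 to 6, those higher in total RNA 4 to 7, and the median TE change of the members was 0.0928 to 0.299. With total count scaling, 9 members were higher and 23 lower in polysome than in total RNA of shCtrl cells, and 13 were higher in shPRRC2B cells.

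Some values changed sign, among them called ones. With the length trend removed, alone and with the replicate block, these were SLC25A3 in TE (0.28, 0.27) and polysome RNA (0.11, 0.11) and SLC25A6 in polysome RNA (-0.0601, -0.16). In polysome against total RNA they were SLC25A28 (-0.67, -0.68) and SLC25A35 (-0.0468, -0.0471) in shPRRC2B cells, SLC25A36 in shCtrl (0.37, 0.38) and shPRRC2B cells (0.26, 0.26) and, only with trend removal and block together, SLC25A5 in shPRRC2B cells (-0.0194). Total count scaling gave -0.25 for SLC25A28 and -0.16 for SLC25A35 in shPRRC2B polysome against total RNA and 0.0112 for SLC25A6 in TE, which was 0.0458 with at least 10 counts in every library. Over the left-out libraries, SLC25A3 ran from -0.0694 to 0.0228 in total RNA, and SLC25A6 from -0.20 to 0.90 in total RNA, from -0.19 to 0.48 in polysome RNA and from -0.71 to 0.39 in TE. SLC25A18 ran from -0.60 to 0.30 in shPRRC2B polysome against total RNA. The cause was not tested.

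No pairing by replicate number was seen in the counts: deviations of same-numbered libraries correlated between -0.0596 and 0.0507, and 8 of 18 comparisons were best with the own number. With 3 libraries a group, these values cannot show whether same-numbered libraries came from the same culture. With the replicate block, 8 members were higher and 4 lower in TE, 7 and 10 in total RNA and 10 and 8 in polysome RNA. SLC25A29 lost its TE call (0.65, adjusted p = 0.0506), SLC25A18 its call in shCtrl polysome against total RNA (-3.01, adjusted p = 0.0557), and SLC25A5 was called lower in total RNA (-0.58, adjusted p = 0.0402). A culture block within lines does not estimate changes between lines and was used for TE and polysome against total RNA only.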
